A study of Mus musculus with 2 samples.

Results

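The miRNA genes described here are Mir342, Mir151, Mir28a and Mir28c, chosen by name from the 1973 miRNA genes counted in mouse embryonic hindbrain. Of these 4 genes, 3 have a row in the count tables, and all 3 had at least 10 counts in both libraries, the level called detected. Mir28c has no row under its identifier, so its level was not analysed here. MicroRNA sequencing was carried out on hindbrain from B6NCrl mouse embryos at embryonic day 12.5. The only group holds 2 libraries. The labels call them biological replicates, number 1 made from 120 pooled embryos and number 2 from 88, with males and females mixed. The animals carry no treatment or altered allele in the labels. With a single group there was no contrast of conditions, and the values describe levels and how far the replicates lay apart.

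MicroRNAs (miRNAs) are cut from hairpins in longer transcripts, and the mature strand guides the Argonaute complex to messenger RNAs that match its seed, bases 2 to 8. Many miRNA hairpins lie in introns of protein-coding genes and can be released from the host's transcript. The hosts of 3 of the genes act where cells grip their surroundings. Evl encodes an actin regulator of the Ena/VASP family, Ptk2 encodes focal adhesion kinase, which signals downstream of integrins, and Lpp encodes a LIM domain protein of the zyxin family found at focal adhesions. The miR-28 and miR-151 hairpins are known to have arisen from long interspersed repeats and are grouped with miR-708 in 1 miRNA family, whereas miR-342 is not part of it. The host messenger RNAs were not measured in these libraries.

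The label under which the genes were grouped held for 3 of the 4 positions in the GENCODE M21 annotation of GRCm38, the same assembly as mm10. Mir342 (ENSMUSG00000065436.1) lies on the plus strand at chr12:108658620-108658718, in an intron of Evl. Mir151 (ENSMUSG00000065612.1) lies on the minus strand at chr15:73254815-73254882, in an intron of Ptk2. Mir28a (ENSMUSG00000065494.1) lies on the plus strand at chr16:24827855-24827940, in an intron of Lpp. Mir28c lies on the minus strand at chr15:53614205-53614279, in an intron of Samd12 and not of Lpp, and Samd12 is not among the adhesion and actin genes listed for this work.

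Mature sequences from RefSeq (build GRCm38.p6) matched 2 of the 4 genes, Mir342 and Mir28a, and Mir151 and Mir28c are given by name. They are shown to compare the seeds, which the capitals mark.
mmu-miR-342-5p: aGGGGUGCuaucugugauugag
mmu-miR-342-3p: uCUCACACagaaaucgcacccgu
mmu-miR-28a-5p: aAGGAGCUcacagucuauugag
mmu-miR-28a-3p: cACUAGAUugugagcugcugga
mmu-miR-708-5p: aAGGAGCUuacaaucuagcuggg
mmu-miR-28b: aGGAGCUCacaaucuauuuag

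The RefSeq table held 1738 mature mouse sequences, with none for Mir151 or Mir28c. In it the seed of miR-28a-5p occurred in 2, miR-28a-5p itself and miR-708-5p. Each of the other member arms it held, miR-28a-3p, miR-342-5p and miR-342-3p, had a seed found in no other entry. Over 22 aligned positions counted from the 5′ end, miR-28a-5p and miR-708-5p were identical at 16. The differences, with the miR-28a-5p base first, were C9U, G13A, U18G, U19C, G20U and A21G, all beyond the seed. The mature miR-28b starts 1 base later in the shared stretch, so its seed differs, while 19 of its 21 bases equal miR-28a-5p read from base 2. Apart from such relatives, the longest run that an arm of miR-342 shared with an arm of miR-28a was 6 bases.

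The deposited counts sum both arms of a hairpin, so the arms of Mir342 were not measured apart. The hairpin is shown to mark where they lie, with miR-342-5p and then miR-342-3p in capitals and the loop between them in lower case, from chr12:108658620-108658718 on the plus strand.
Mir342 hairpin: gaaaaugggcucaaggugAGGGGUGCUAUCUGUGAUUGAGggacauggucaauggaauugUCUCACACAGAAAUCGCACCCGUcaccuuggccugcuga

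Reads that fit several places in the genome were assigned to no gene. Of the counted members, Mir28a alone shared a run of 20 bases with another annotated miRNA hairpin. Mir28a and Mir28c share an identical run of 20 bases, and it covers bases 2 to 21 of the 22 bases of miR-28a-5p and none of miR-28a-3p. A read that lies wholly inside that run matches both hairpins and would be assigned to neither, and how many such reads there were was not tested. No run of 20 bases in Mir342 or Mir151 occurred in another annotated miRNA hairpin, and the rest of the genome was not searched. Reads that matched several positions made up 32.7% and 33.4% of all reads in replicates 1 and 2.

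Measured along the genomic span of their hosts, the 3 hairpins lay at a like place, in the later part of each gene. Mir342 lay 103.9 kb from the start of Evl, at 77.7% of its 134 kb, and Mir151 lay 168 kb from the start of Ptk2, at 77.2% of its 218 kb. Mir28a lay 434 kb into Lpp, at 72.5% of its 599 kb. Over all 656 miRNA genes in introns of protein-coding genes the median position was 53.6%, with an interquartile range of 32.3% to 71.8%, and 9.15% lay between 70% and 80%. By intron order the hairpins were less alike. In the host's coding transcript with the most exons, Mir342 was in intron 4 of 14, Mir151 in intron 23 of 33 and Mir28a in intron 8 of 12. These introns were 20.2, 14.6 and 82.8 kb long. No other counted miRNA gene lay within the span of Evl, Ptk2 or Lpp, so none of the 3 hairpins had a cluster partner in its host.

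**Figure D1:**
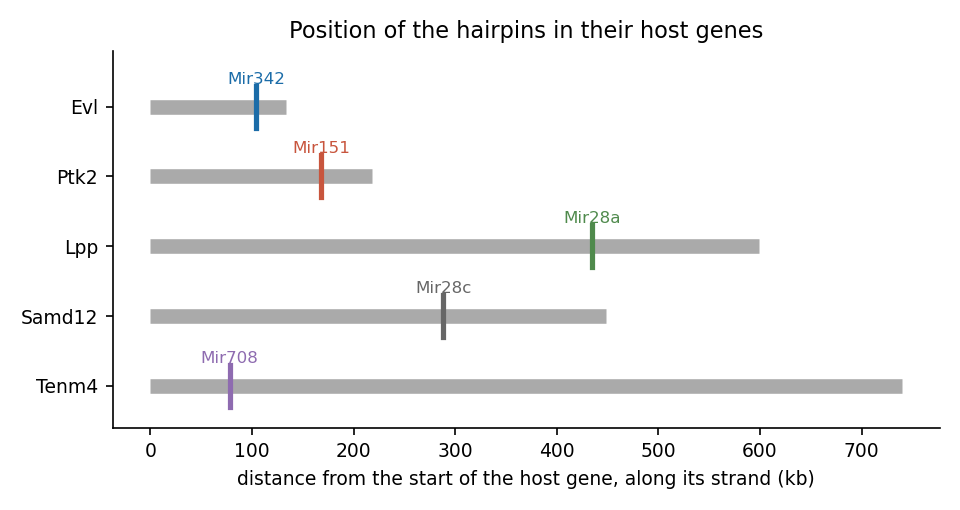
Host genes drawn to scale as grey bars along their own strand, with the hairpin as a coloured line; the x axis is the distance from the start of the host in kb. Mir342, Mir151 and Mir28a lie between 72.5% and 77.7% of the way along Evl, Ptk2 and Lpp, Mir28c at 64.2% of Samd12 and Mir708 at 10.6% of Tenm4.

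Levels are counts per 1000000 counts assigned to miRNA genes on the gene's own strand (CPM). Replicate 1 had 2764276 such counts and replicate 2 had 3946444. The limit set by 3 counts was 1.09 CPM for the first library and 0.760 CPM for the second. This limit and the intervals given for shares hold no error other than that of counting. The marker miRNA genes of the hindbrain's axial position, Mir10a and Mir10b, summed to 42345 and 40411 CPM in the 2 replicates, and neural Mir137 had 3263 and 3343 CPM. Of 6 neural markers with a row, 3 were detected. The neural markers besides Mir137, copies of miR-9 and miR-124, share sequence with other hairpins. Their reads that fit several places were not counted, a loss whose size was not tested. Mir9-3 had 367 and 398 CPM and Mir124a-2 had 10.5 and 9.38 CPM. Mir9-2, Mir124a-1 and Mir124a-3, not detected, had at most 10 counts in either library. Markers of other cell types were present as well, and the levels of some differed between the libraries. Epithelial Mir200c and Mir429 summed to 4909 and 2108 CPM, muscle Mir206 and Mir133b to 152 and 592 CPM, leukocyte Mir223 and Mir155 to 501 and 420 CPM, and endothelial Mir126a had 25987 and 23442 CPM. Mesenchymal Mir214 had 12145 and 9714 CPM, smooth muscle Mir143 had 8223 and 10663 CPM, and erythroid Mir451a and Mir144 summed to 277 and 340 CPM. Epithelial genes outside the marker list did not all fall as Mir200c and Mir429 did. Mir200b had 866 and 468 CPM and Mir141 238 and 136 CPM, but Mir205 had 1271 and 1459 CPM. Mir203 (2230 and 2155 CPM) and Mir200a (146 and 143 CPM) changed little. No marker gene with a row was at 0 in both libraries. Their part in the members' levels was not tested, and in such tissue libraries fewer cells of a type and less RNA per cell cannot be told apart.

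Mir342 was the highest of the 3 genes. It had 30058 counts or 10874 CPM in replicate 1, and 35661 counts or 9036 CPM in replicate 2, a mean of 9955 ± 1299 CPM (SD, n = 2). That was 1.09% of the assigned counts in replicate 1 (95% interval by the exact Clopper-Pearson method, 1.08% to 1.10%), and replicate 2 had 0.904% (0.894% to 0.913%). By mean CPM it ranked 25 of 1973 miRNA genes, and 10 of the 656 in introns of protein-coding genes. Ranks and shares count only reads placed at a single position, so genes that share sequence can stand too low in them. How far that moved the members' ranks and shares was not tested.

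Mir151 followed within the same order of magnitude. It had 19218 counts or 6952 CPM in replicate 1 and 24629 counts or 6241 CPM in replicate 2, a mean of 6597 ± 503 CPM (SD, n = 2). Its share was 0.695% in replicate 1 (0.685% to 0.705%) and 0.624% in replicate 2 (0.616% to 0.632%). It ranked 36 overall and 16 among intronic miRNA genes.

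Mir28a was about an order of magnitude below Mir342. It had 2730 counts or 988 CPM in replicate 1 and 3260 counts or 826 CPM in replicate 2, a mean of 907 ± 114 CPM (SD, n = 2), which counts only reads that can be told from Mir28c. Its share was 0.0988% in replicate 1 (0.0951% to 0.103%) and 0.0826% in replicate 2 (0.0798% to 0.0855%). It ranked 109 overall and 40 among intronic miRNA genes, of which 141 were detected.

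The order Mir342, Mir151, Mir28a held in both libraries, and the ranges of the 3 genes did not overlap. Counts of Mir342 were 1.56 times those of Mir151 in replicate 1 and 1.45 times in replicate 2. Mir151 stood above Mir28a 7.04-fold in replicate 1, with a ratio of 7.55 in replicate 2. Mature miRNAs are close to each other in length, so these ratios need no length scaling, although adapter ligation favours some miRNAs over others and limits any ratio between genes. The rule named the genes with their levels known, so the order is a description and was not tested. The 3 genes together held 1.75% ± 0.192 of the assigned counts (SD, n = 2), with 1.88% in replicate 1 (1.87% to 1.90%) and 1.61% in replicate 2 (1.60% to 1.62%). Within that sum Mir342 gave 57.8% and 56.1%, Mir151 37.0% and 38.8%, and Mir28a 5.25% and 5.13% in replicates 1 and 2.

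**Figure D2:**
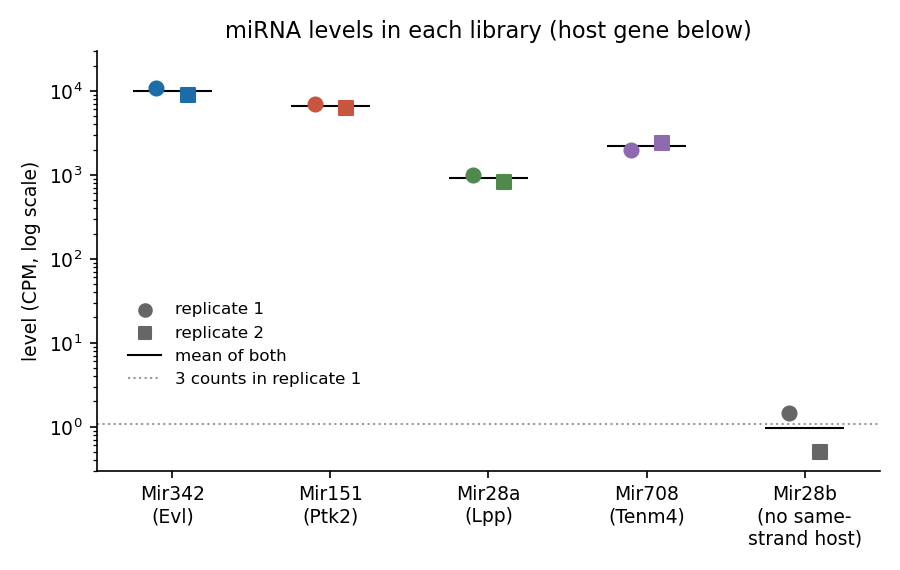
Level of each miRNA gene in CPM on a log axis, circles for replicate 1, squares for replicate 2 and a bar for their mean, with the host gene in brackets. Mir342 and Mir151 lie between 6241 and 10874 CPM, Mir28a at 826 and 988 CPM, and Mir28b near the level of 3 counts.

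Neighbours in the order of mean CPM lay close to the members. They were chosen by that mean over the same 2 libraries, so overlapping ranges and changes of order follow in part from the choice. The 2 genes directly above and the 2 directly below each member, taken as those of most similar level over the 2 libraries, all had ranges over the libraries that overlapped the member's. Within each library, however, Mir23b was above Mir342, Mir744 above Mir151 and Mir323 above Mir28a, while the other 9 neighbours changed order with their member between the libraries. For Mir342 these were Mir23b (11586 and 9544 CPM), Mir181c (10036 and 10790 CPM), Mir149 (11442 and 8329 CPM) and Mir143 (8223 and 10663 CPM). For Mir151 they were Mir744 (8354 and 6294 CPM), Mir127 (6448 and 7264 CPM), Mir652 (7118 and 5887 CPM) and Mir369 (6126 and 6775 CPM). For Mir28a they were Mir323 (1111 and 882 CPM), Mir27b (857 and 1063 CPM), Mir483 (852 and 862 CPM) and Mir341 (769 and 939 CPM). The rank of a member moved by a few places between the libraries, as with Mir342, which ranked 23 in replicate 1 and 27 in replicate 2.

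**Figure D3:**
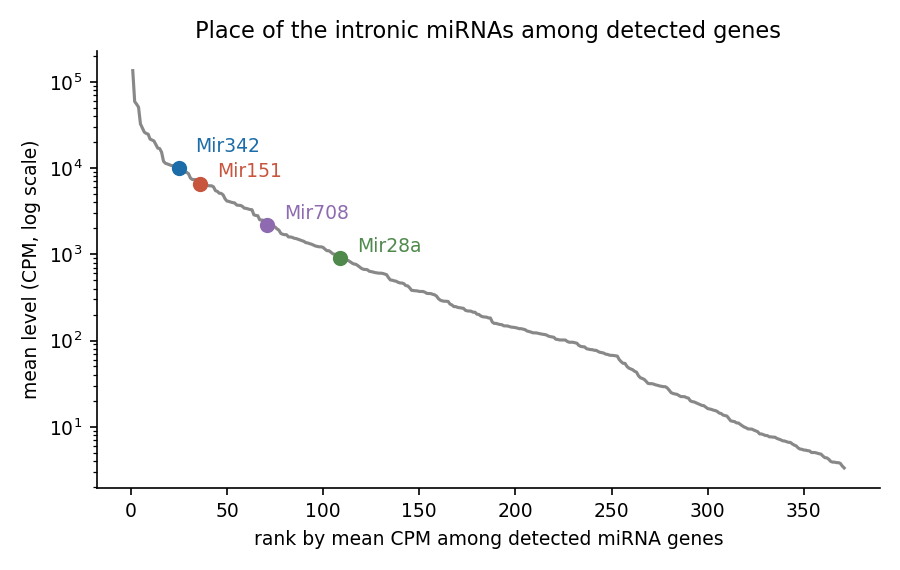
Mean CPM on a log axis against rank for the 371 detected miRNA genes (grey line), with the described genes as coloured points. Mir342 and Mir151 sit on the steep left part at ranks 25 and 36, with Mir708 at 71 and Mir28a at 109.

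Mir708, the gene that shares the miR-28a-5p seed, was higher than Mir28a in both libraries. Mir708, in an intron of Tenm4, which encodes a teneurin adhesion receptor, lies on the plus strand at chr7:96249424-96249532. It had 5469 counts or 1978 CPM in replicate 1 and 9482 counts or 2403 CPM in replicate 2, a mean of 2191 ± 300 CPM (SD, n = 2). Both of its values were above both values of Mir28a, with a ratio of 2.00 in replicate 1 and of 2.91 in replicate 2. Mir708 shares a run of 23 bases with Gm23134, and it covers bases 2 to 23 of miR-708-5p, so its count is exposed to the same loss, whose size was not tested. Together Mir28a and Mir708, the hairpins found to carry the miR-28a-5p seed, summed to 2966 CPM in replicate 1 and to 3229 CPM in replicate 2. The arm that gave the reads was not measured. Mir28b, whose mature sequence is close to miR-28a-5p but has another seed, had 4 and 2 counts in replicates 1 and 2, or 1.45 and 0.507 CPM, and was not detected by the minimum used.

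No member count came from the opposite strand. Mir342, Mir151 and Mir28a each had 0 counts on it in both libraries, so counts with both strands together were the same as on the gene's own strand. For comparison, 67385 counts in replicate 1 and 94907 in replicate 2 were on the strand opposite to some miRNA gene.

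All 3 members were lower in replicate 2 than in replicate 1, each by less than 2-fold. Each of the 393 genes that averaged 10 counts or more was put to an exact binomial test, two-sided, and the p-values were adjusted over all of them by the Benjamini-Hochberg method. It compares these 2 libraries, not conditions, and its p-values hold counting error only. Mir342 had a log2 ratio of replicate 2 over replicate 1 of -0.27, or 1.20-fold lower in replicate 2 (adjusted exact p = 1.45e-121). Mir28a had a log2 ratio of -0.26 (adjusted exact p = 3.23e-11) and Mir151 one of -0.16 (adjusted exact p = 3.5e-28). With calls set at 2-fold or more and an adjusted p below 0.05, 0 of 3 members were called, where 3.56% of all tested genes were called in either direction and 1.27% as lower in replicate 2. Without the minimum fold, and likewise at an unadjusted p under 0.05, all 3 members passed, and by adjusted p all were lower in replicate 2. Of all tested genes, 51.7% passed without the minimum fold, 26.5% lower and 25.2% higher in replicate 2, so a call of that kind was common at this depth.

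The members' differences were set beside those of abundant genes. The median absolute log2 ratio over the 105 genes that averaged 1000 CPM or more was 0.17. Of these 105 genes, 50 lay closer between the libraries than Mir151 and 76 closer than Mir342. Mir28a, just below that level at 907 CPM, was farther apart than 75 of them. The median log2 ratio over all tested genes was -0.04, beside -0.26 over the 3 members. Mir708 went the other way, with a log2 ratio of 0.28 (adjusted exact p = 7.56e-30) and less than 2-fold.

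**Figure D4:**
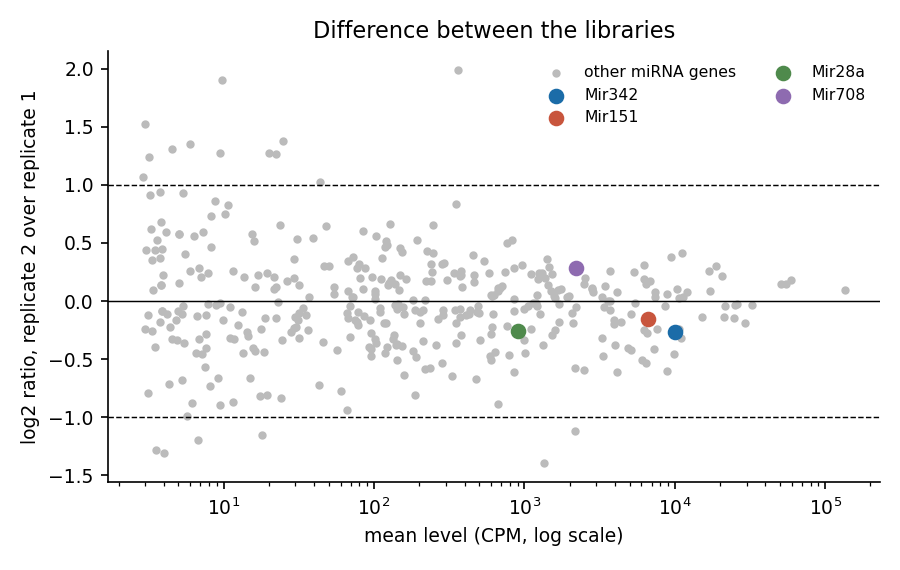
Log2 ratio of replicate 2 over replicate 1 against mean CPM on a log axis for the 393 tested miRNA genes (grey) and the described genes (coloured); dashed lines mark 2-fold. Mir342, Mir151 and Mir28a lie between -0.27 and -0.16 and Mir708 at 0.28.

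Other miRNA genes in introns of adhesion and actin genes ranged from abundant to absent. A list of 124 adhesion and actin genes, which contains Evl, Ptk2 and Lpp, held 21 miRNA genes in introns, of which 13 (61.9%) were detected. Among all miRNA genes in introns of protein-coding hosts 141 of 656 (21.5%) were detected, and among all miRNA genes 371 of 1973 (18.8%). Without the 3 members the list had 10 detected of 18, with a median of 72.9 CPM among them, beside 142 CPM over all detected intronic genes and 183 CPM over all detected genes. The list was written with the members' levels known, and it was described and not tested. It is a choice of genes, so these counts and medians hold for the list and not for every adhesion or actin gene.

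Mir342 and Mir151 were among the 4 genes of that list at 1000 CPM or more. The other genes at that level were Mir149, in an intron of the proteoglycan gene Gpc1, at 9885 ± 2201 CPM, and Mir708. Next below Mir28a came Mir455, in an intron of the fibrillar collagen gene Col27a1, at 792 ± 180 CPM, and its values of 919 and 665 CPM overlapped those of Mir28a. Mir218-2, in an intron of the guidance gene Slit3, had 224 ± 47.0 CPM and Mir218-1, in its paralogue Slit2, had 22.3 ± 1.39 CPM, and both share sequence. Mir488 in Astn1, a gene of neuronal migration along glia, had 78.3 ± 7.92 CPM. Mir190a in Tln2, which encodes a talin that links integrins to actin, had 67.4 ± 11.4 CPM and shares sequence. The detected genes in myosin hosts were low, with Mir208b in Myh7 at 22.3 ± 13.2 CPM, Mir499 in Myh7b at 9.72 ± 8.12 CPM and Mir208a in Myh6 at 4.56 ± 0.714 CPM (SD, n = 2 throughout). Of the 13 detected genes, 2 were called between the libraries by the exact binomial test at 2-fold, Mir208b (13.0 and 31.7 CPM in replicates 1 and 2) and Mir499 (3.98 and 15.5 CPM), in the same direction as the muscle markers above, whose part was not tested. Over all tested genes 3.56% were called by that rule. By adjusted p alone 10 of the 13 passed, beside 51.7% of all tested genes. The remaining 8 genes of the list were not detected, and 5 of them had no count in either library.

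**Figure D5:**
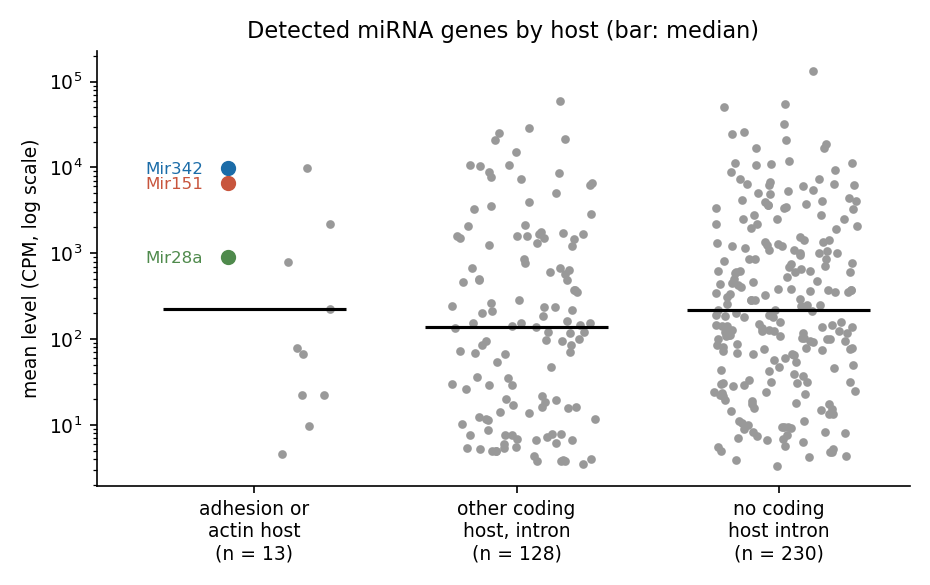
Mean CPM on a log axis of every detected miRNA gene by host. The groups hold 13 genes in introns of the listed adhesion or actin genes, 128 in introns of all other protein-coding genes and 230 elsewhere. The bar is the group's median. Mir342, Mir151 and Mir28a (coloured) lie above the median of 224 CPM in the first group, which includes them. Without them that median is 72.9 CPM, below the medians of 139.8 and 216 CPM in the others.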

How the data were processed

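Small RNA, selected below a size of 30 per the labels, was sequenced from 2 pools of hindbrain. The deposited tables hold read counts per miRNA gene made by the authors on mm10 and GENCODE M4 (stated in the accompanying deposited text), as counts for both strands and for each strand. The strand columns have no header and were read from their layout. Which aligner was used is not given in the sources used here. The counts are not normalized. Rows for unmapped (15.7% and 16.2% of reads), multiply placed (32.7% and 33.4%) and unannotated reads (5.12% and 4.81%) were left out of totals.

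Identifiers matched GENCODE M21 for 1894 of 1973 genes, and the other 79 had at most 3 counts. A host is a protein-coding gene that contains the hairpin on the same strand without exon overlap. Sequence was called shared at 20 identical bases. Counts were scaled to CPM of own-strand totals. Detection took 10 counts in both libraries. The exact binomial test added 0.5 to each count in the ratio. It was checked on simulated counts with counting error alone, so that check does not cover other variation between libraries. The members and lists were chosen with earlier results of these data known. Named genes are the members, the 2 next genes above and below each, seed relatives, detected genes of the host list and marker genes. Further epithelial genes are named beside the markers. The alternatives were other strands, denominators, minimums, pseudocounts, edgeR 4.0.16 TMM and DESeq2 1.42.0 size factors (R 4.3.3). Python 3.11.15, pandas 2.3.3, SciPy 1.17.1 and matplotlib 3.10.9 were used. The labels call the libraries biological replicates from pools of different size but give both the same donor label, so the spread between them may be partly technical.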

Additional observations from a re-analysis of the deposited data

Results flagged for a closer look

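Mir708 had reads on the strand opposite to the gene, outside the column used for levels, at 8 counts in replicate 1 and 21 counts in replicate 2. Both are above the limit of 3 counts that a count of 0 allows. Mir342, Mir151 and Mir28a had 0 such counts in both libraries.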

How the results depend on the processing

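The summed share of Mir342, Mir151 and Mir28a was 2.02% without the most abundant gene in the counts, against 1.75% with it, because the denominator is smaller. It stayed within 1 SD with both strands together, without genes that share sequence (which leaves out Mir28a) and with reads outside miRNA genes added to the total. The level of Mir151, 6597 CPM with an SD of 503, moved by more than 1 SD under several denominators. It was 7622 CPM without the most abundant gene, 7171 without genes that share sequence and 5954 with reads outside miRNA genes. Mir342 and Mir28a moved so only without the most abundant gene, to 11501 and 1048 CPM. Leaving out a replicate gave a summed share of 1.61% to 1.88%. The number of members called between the libraries was 0 under the other alternatives and 3 without the minimum fold. Over all tested genes the calls were 14, with 203 without the minimum fold and 8 at a minimum mean of 50 counts, which tests fewer genes. All 3 log2 ratios stayed negative, from -0.27 to -0.22 for Mir342, -0.26 to -0.21 for Mir28a and -0.16 to -0.11 for Mir151. Of the 21 miRNA genes with a listed adhesion or actin host, 16 had at least 1 count in both libraries, beside 616 of all genes. At 50 counts in both libraries the numbers were 10 and 294. With both strands together they were 13 and 382. No paired analysis was possible because the design has 1 group. Over 2 libraries, 9 of the 12 neighbours of the members changed order with them. They were chosen by mean level over the same libraries, and the share among other adjacent genes was not computed. How small a difference can be detected at counts of a few reads was not tested.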
